A study of Homo sapiens with 4 samples.

Results

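Eph receptors and their ligands, the ephrins, were followed in clones of HCT116, an established colorectal carcinoma cell line, with and without a knockdown of plakophilin3 (PKP3), a desmosomal plaque protein. The genes were 3 EphA receptors (EPHA1, EPHA2 and EPHA4), 3 EphB receptors (EPHB2, EPHB3 and EPHB4) and 4 ephrins (EFNA1, EFNA4, EFNB1 and EFNB2). They were chosen by name, as the probes that the array files list under these symbols and that are not controls, which gave 14 of 50238 probes and 10 of 30986 gene names. The vector control (vec) carried a plasmid without the hairpin, and shpkp3-2 was a stable clone with a plasmid encoded shRNA to PKP3. Each was hybridized to 2 single color Cy3 arrays, the first array of each from one RNA collection and the second from another. The labels give 5 μg/ml of puromycin as the selection of the clones, whereas the study's methods name blasticidin at the same dose. Only 1 clone stood for each condition, so every value below compares these clones.

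Eph receptors are tyrosine kinases of the plasma membrane that bind ephrins on neighbouring cells. A-type ephrins are held in the membrane by a lipid anchor and B-type ephrins by a transmembrane segment with a signalling tail, so that signals can run into both cells. The contact between cells drives repulsion, adhesion and the sorting of cells into compartments. In the intestine EphB2 and EphB3 are targets of Wnt signalling that keep crypt cells in position, while EphA2 is a receptor of many carcinomas that is turned down by its ligand ephrin-A1.

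The probes of EPHA1 and EPHA2, which had the largest differences, and of EPHB4, for comparison with a receptor of the other class, are shown because they define which part of each transcript was measured. The EPHA1 probe lies in coding sequence of the kinase domain, and those of EPHA2 and EPHB4 lie in coding sequence of the SAM domain at the end of the receptor tail. Each has 60 bases and reads through its length without a stop codon in at least 1 frame, and the longest run that any of them shares with a probe of another Eph or ephrin gene is 9 bases. They are given 5′ to 3′ as the array files list them, in lower case.
EPHA1: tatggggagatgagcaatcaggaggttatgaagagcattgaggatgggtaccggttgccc
EPHA2: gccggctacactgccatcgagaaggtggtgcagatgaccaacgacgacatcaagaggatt
EPHB4: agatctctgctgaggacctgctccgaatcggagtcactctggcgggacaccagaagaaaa

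EPHA4 has 3 probes of 60 bases, and the 2 dimmer ones overlap in their sequence, so that they are not independent of each other. The capitals mark the 20 bases which they have in common.
EPHA4: ATGGTGTGTCCTGGATTAAT

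The arrays were alike in quality. The share of spots well above background, a flag of the scanner software for signals clear of the local noise, was 60.5% to 63.5% per array, and 0 spots were saturated. The 75th percentile of the signal was 499 on the first vec array and 374 to 381 on the other arrays, so that unscaled signals of the first vec array read high. Values were therefore compared as log2 of the signal minus log2 of the 75th percentile of the array, called the normalized log2 value here. The PKP3 probe had signals of 20850.3 and 22839.8 in vec and of 3414 and 3078 in shpkp3-2, so that shpkp3-2 had 17.2% of the vec level. Of 7 markers of colon epithelium, 6 were clear of background on all arrays, VIL1 being the exception. Their summed unscaled signal was 476687 to 549041 in vec and 531230 to 534706 in shpkp3-2. After scaling these 6 markers all had positive log2 fold changes with a median of 0.28, beside 0.051 over all probes. The shpkp3-2 arrays lay above the vec arrays without overlap for 4 of them, beside 27.2% of all probes. limma called 0 of them, beside 0.249% of all probes called higher, and 0 had an unadjusted p under 0.05. Their part in the results below was not tested. The summed signals of 5 fibroblast, 4 leukocyte and 3 endothelial markers reached 199.6 at most for fibroblast, 250.4 for leukocyte and 111 for endothelium, and the defining markers PTPRC and CDH5 were not well above background on any array. All arrays shared 1 slide and 1 scan time, but shpkp3-2 took the first positions of the slide and vec the later ones, so that an effect of position cannot be told apart from one of the clone.

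All 14 probes of the Eph receptors and ephrins passed the background flag on each of the 4 arrays, and the brightest probe of a gene gives its value. The clones differed most in EPHA2 and EPHA1, which ran in opposite directions. EPHA2 had 51.0% of the vec level in shpkp3-2 and EPHA1 187%, while the other genes lay between 73.1% and 126%. None of the 10 genes passed an adjusted p of 0.05 in limma over the 30520 probes tested, of which 0.249% were called higher and 0.147% lower in shpkp3-2. At an unadjusted p under 0.05 there was 1 gene higher (EPHA1) and 2 lower (EPHA2 and EFNB1), beside 7.36% and 4.98% of all probes. The arrays of the clones did not overlap for 2 genes that were higher and 5 that were lower, which compares with 27.2% and 18% of all probes. An equal variance test called 0 of all 30520 probes, so that its count of 0 carries no information on any list here. The smallest log2 fold change, in absolute value, that limma called over all probes was 1.42, and no Eph receptor or ephrin reached it.

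**Figure D1:**
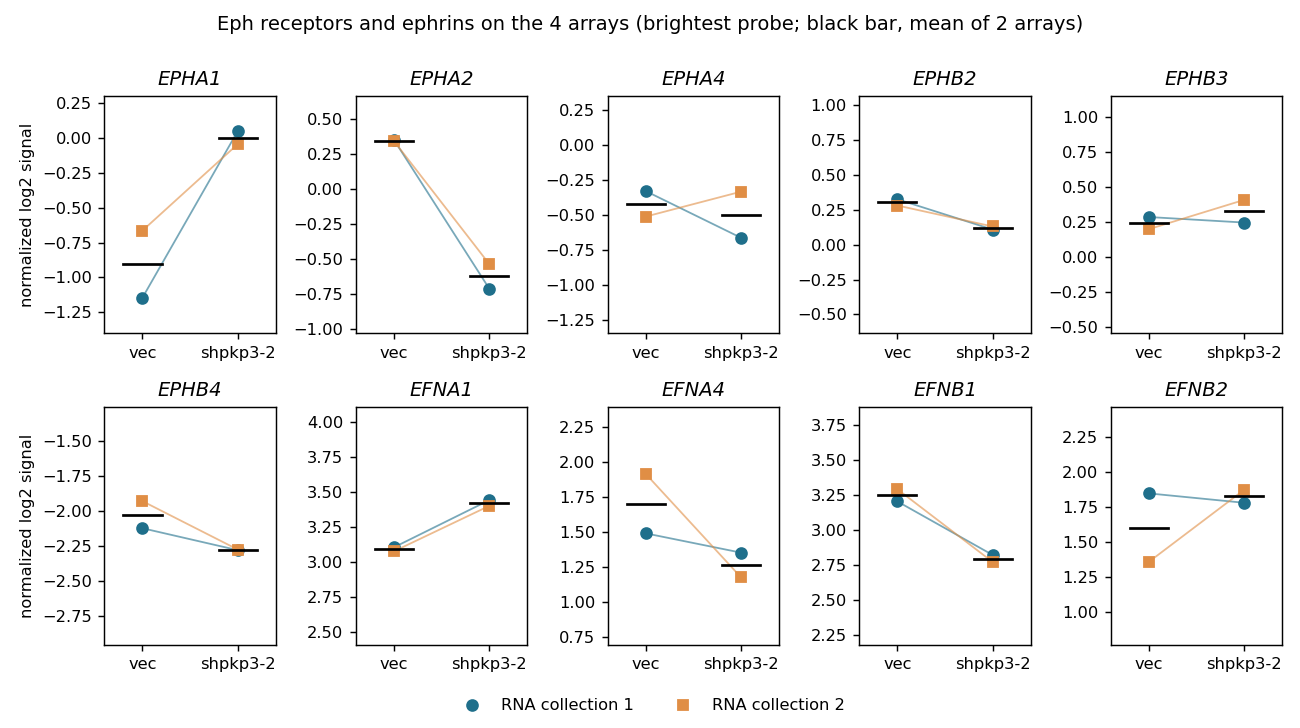
Normalized log2 signal of the brightest probe of each gene on the 4 arrays, with vec and shpkp3-2 on the horizontal axis, a line between the arrays of the same RNA collection and a black bar at the mean of 2 arrays. Every panel spans the same number of log2 units, but its level is that of its own probe and cannot be set against another panel. The EPHA1 and EPHA2 panels show the largest steps, with means from -0.90 to 0.00 and from 0.35 to -0.62.

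EPHA2, the receptor for ephrin-A1 that is often abundant in carcinoma cells, had signals of 636 and 483 on the vec arrays and of 231 and 258 on the shpkp3-2 arrays. EPHA2 was lower on each shpkp3-2 array than on either vec array, and the vec arrays nearly coincided after scaling. Mean normalized log2 values were 0.35 ± 0.0062 (SD, n = 2) for vec and -0.62 ± 0.12 (SD, n = 2) for shpkp3-2. The log2 fold change of EPHA2 was thus -0.97 (standard error 0.18, 95% interval -1.41 to -0.54, adjusted p = 0.135 from limma). This difference exceeded the spread within either clone, and it was -1.06 in the first RNA collection and -0.88 in the second. As the clones did not overlap, the sign within each collection was already fixed. An exact permutation test of 2 arrays against 2 cannot give a two-sided p below 0.333, which was its value here. Over all probes tested, 1.18% had a smaller p than EPHA2. When the RNA collection was added as a replicate block, EPHA2 passed (adjusted p = 0.0492 from limma). With the block its standard error was larger, at 0.28, and 841 of all probes were called, against 121 without the block. A crossed pairing of the arrays, added after seeing the data, did not call EPHA2 (adjusted p = 0.125 from limma). EPHA2 also passed, at -0.87, when the background was corrected with normexp (adjusted p = 0.0439 from limma). Its adjusted p ranged from 0.0439 to 0.571 over the 16 alternatives, 2 of which called it.

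EPHA1, the first Eph receptor to be identified and an epithelial one, had signals of 226 and 240.4 in vec and of 391 and 362 in shpkp3-2. Here both shpkp3-2 arrays were above both vec arrays. After scaling, though not in the unscaled signals, the vec arrays stood apart from each other more than the shpkp3-2 arrays did. Mean normalized log2 values were -0.90 ± 0.34 (SD, n = 2) for vec and 0.00 ± 0.066 (SD, n = 2) for shpkp3-2, with a log2 fold change of 0.90 (standard error 0.22, 95% interval 0.36 to 1.45, adjusted p = 0.225 from limma). The first RNA collection gave 1.19 and the second 0.62, and the gap between these comes mostly from the vec arrays. Over all probes, 2.91% had a smaller p, and EPHA1 passed in none of the 16 alternatives.

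The difference of EPHA1 and EPHA2 within an array does not depend on how the arrays are scaled to each other. On the log2 scale EPHA1 minus EPHA2 was higher by 1.88 in shpkp3-2 than in vec, by 2.25 in the first RNA collection and by 1.497 in the second. This contrast was chosen after the values were seen, and it cannot say which of the genes differs (exact permutation test, two-sided p = 0.333).

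EPHA4, a receptor that binds both A-type and B-type ephrins, had signals of 397 and 268 in vec and of 239.5 and 297 in shpkp3-2 at its brightest probe. These arrays overlapped, with a log2 fold change of -0.078 (95% interval -0.57 to 0.42, adjusted p = 0.900 from limma). Its dimmer probes, which share the bases printed above, gave -0.40 and -0.22, and at both of them the shpkp3-2 arrays lay below the vec arrays. The probes of EPHA4 thus had the same sign and different sizes, and none passed.

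**Figure D2:**
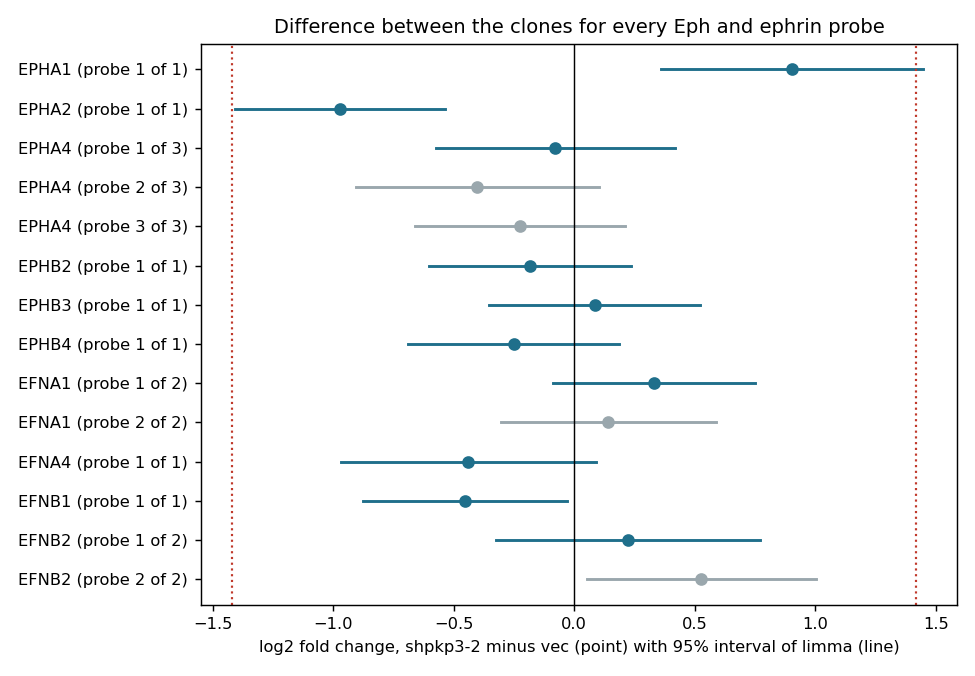
Log2 fold change of shpkp3-2 against vec on the horizontal axis for each of the 14 probes, as a point with its 95% interval from limma, in blue for the brightest probe of a gene and in grey for its further probes. The dotted red lines at 1.42 above and below 0 mark the smallest change that limma called over all probes, and no point lies beyond them.

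The EphB receptors had log2 fold changes between -0.25 and 0.085, and none passed. With 1 array left out in turn, EPHB2 ranged from -0.21 to -0.16, EPHB3 from 0.0035 to 0.17 and EPHB4 from -0.35 to -0.15. EPHB2, the Wnt target of the crypt base, had signals of 624 and 463 in vec and of 408 and 409 in shpkp3-2. The shpkp3-2 arrays lay just below the vec arrays after scaling, with a log2 fold change of -0.18 (95% interval -0.60 to 0.23, adjusted p = 0.690 from limma). EPHB3, which acts with EPHB2 in crypt cells, had signals of 608 and 438 in vec and of 449 and 497 in shpkp3-2. Its arrays overlapped, and its log2 fold change was 0.085 (95% interval -0.35 to 0.52, adjusted p = 0.874 from limma). EPHB4, the receptor of ephrin-B2 best known from blood vessels, had signals of 114 and 99.99 in vec and of 77.9 and 77.2 in shpkp3-2. Both shpkp3-2 arrays were the lower ones, with a log2 fold change of -0.25 (95% interval -0.69 to 0.19, adjusted p = 0.603 from limma). The intervals of these receptors reach no further than -0.69 and 0.52, so that a 2-fold difference, which is 1 on this scale, lies outside each of them.

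Among the ligands, EFNB1 and EFNA4 had negative log2 fold changes and EFNA1 and EFNB2 positive ones, and none passed. EFNB1, the transmembrane ligand of EphB receptors, had signals of 4595 and 3730.4 in vec and of 2677 and 2554 in shpkp3-2. Both shpkp3-2 arrays were below both vec arrays, at 73.1% of the vec level. Mean normalized log2 values were 3.25 ± 0.062 (SD, n = 2) for vec and 2.80 ± 0.036 (SD, n = 2) for shpkp3-2, which is a log2 fold change of -0.45 (95% interval -0.87 to -0.029, adjusted p = 0.383 from limma). By RNA collection it was -0.38 and -0.52. EFNA4, a ligand with a lipid anchor, had signals of 1403 and 1439.8 in vec and of 969 and 847 in shpkp3-2. Again the groups did not overlap, but the SD of the vec arrays was 0.30 on the log2 scale and the RNA collections gave -0.14 and -0.74. The log2 fold change of EFNA4 was -0.44 (95% interval -0.97 to 0.091, adjusted p = 0.480 from limma). With 1 array left out in turn it ranged from -0.65 to -0.23.

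EFNA1, the main ligand of EphA2, had signals of 4284 and 3210.1 in vec and of 4111 and 3947 in shpkp3-2 at its brighter probe. After scaling both shpkp3-2 arrays were above both vec arrays, and the spread within each clone was small. Mean normalized log2 values were 3.09 ± 0.020 (SD, n = 2) for vec and 3.42 ± 0.029 (SD, n = 2) for shpkp3-2, and the RNA collections gave 0.34 and 0.32. The log2 fold change was 0.33 (95% interval -0.087 to 0.75, adjusted p = 0.498 from limma), and the second EFNA1 probe gave 0.14. EFNA1 and its receptor EPHA2 therefore had values on opposite sides of 0, of which neither passed.

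EFNB2, the ligand of EphB4, had signals of 1796 and 979 in vec and of 1302 and 1373 in shpkp3-2 at its brighter probe. The second vec array was the lowest, and after scaling the first vec array lay between the shpkp3-2 arrays, so that the groups overlapped. Its log2 fold change was 0.22 (95% interval -0.32 to 0.77, adjusted p = 0.710 from limma). The dim EFNB2 probe, with signals of 16.6 to 26.7 on the 4 arrays, gave 0.53 (adjusted p = 0.369 from limma).

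The study names more than one fold threshold for the HCT116 arrays, one in the table of the arrays and a lower one for the classification of genes. The former, taken as a 2-fold difference on each shpkp3-2 array from the mean of vec, was met by 0 of the 10 genes. It was met by 1.12% of all probes tested in the direction of higher and by 0.623% in that of lower levels. At the latter, taken as 1.5-fold on each shpkp3-2 array, EPHA1 was past it on the high side and EPHA2 on the low side, each 1 of 10 genes, beside 4.23% and 2.65% of all probes.

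The other 12 genes of the families, which are listed here whole, were for the most part near background. At the brightest probe of each gene, 5 passed the background flag on each of the 4 arrays (EPHA6, EPHB6, EFNA2, EFNA3 and EFNB3) and 6 were well above background on no array (EPHA3, EPHA5, EPHA7, EPHA8, EPHB1 and EFNA5). At these probes the signals of the 6 genes lay between 1.98 and 8.64, while the lowest signal that counted as well above background was 8.41 to 9.74. A dimmer probe of EPHA8 was well above background on the second shpkp3-2 array alone, with a signal of 11.86. EPHA10 was well above background on both vec arrays, with signals of 12.97 and 14.51, and on neither shpkp3-2 array, with 7.95 and 9.26. Its mean scaled level in vec was 1.25-fold the background limit of the shpkp3-2 arrays, or its own signal there where that was higher. This ratio takes no account of the spread between arrays. EPHA10 entered the fit through vec alone (adjusted p = 0.502 from limma), and its shpkp3-2 values have only a bound. The 5 genes measured on all arrays had log2 fold changes of -0.50 to -0.020 with a median of -0.10, beside a median of 0.051 over all probes. limma called 0 of these 5 genes, with 0 at an unadjusted p under 0.05, beside the 7.36% and 4.98% of all probes given above, which leaves nothing to read from so few genes.

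Proteins that act with Eph receptors and ephrins were followed with a list of 45 genes, of which 41 could be tested. limma called 0 of them, with 1 higher and 5 lower at an unadjusted p under 0.05, beside 7.36% and 4.98% of all probes. Their median log2 fold change was -0.072, with 15 above and 26 below 0. The 17 kinases and adaptors had a median of -0.10, the 6 phosphatases, proteases and the ubiquitin ligase of -0.073 and the 5 partners of ephrin-B and PDZ proteins of 0.13.

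The lowest value in this list was that of SRC, a cytoplasmic tyrosine kinase that is recruited to activated Eph receptors and ephrin-B. It had signals of 517 and 356 in vec and of 222 and 180.2 in shpkp3-2. SRC was lower on each shpkp3-2 array than on either vec array, with -0.82 and -0.96 by RNA collection and a log2 fold change of -0.89 (95% interval -1.36 to -0.42, adjusted p = 0.183 from limma). The highest was that of PIK3R1, the regulatory subunit of phosphoinositide 3-kinase, with signals of 68.6 and 73.8 in vec and of 91.6 and 94.5 in shpkp3-2. At the brightest PIK3R1 probe the shpkp3-2 arrays were the higher ones, and the log2 fold change was 0.60 (95% interval 0.052 to 1.15, adjusted p = 0.374 from limma).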

How the data were processed

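The authors hybridized Cy3 labeled total RNA and deposited 1 scanner file per array, written by Agilent Feature Extraction, version 10.7.3.1 per the file headers (the labels name 9.1). The deposited signal of a spot is a linear intensity after detrending and background subtraction, with low signals replaced by surrogates and no scaling between arrays. The deposited 0 or 1 flags are another kind of value. The probes carry no genome position in the files, so none is given.

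From these intensities, log2 was taken, each array was centred on the 75th percentile of its 51538 non-control spots, non-uniform spots (26 to 39 per array) were left out and spots of a probe averaged. A probe was kept if either clone had it well above background on its full set of arrays, and the 30520 kept probes were compared with limma 3.58.1 (R 4.3.3, default eBayes, no covariates) with Benjamini-Hochberg adjustment over all of them. The brightest probe over the 4 arrays gives a gene its value. Figures and counts used Python 3.11.15. Genes of the lists were matched by RefSeq accession, symbol or older symbol of GRCh38.p14.

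The genes and lists were chosen with earlier results of these data known. The named genes are every Eph receptor and ephrin given above, other family members by count with values where past the threshold or 2-fold, the lowest and highest pathway gene, and PKP3. EPHA10 was added after its values were seen. A further group of the pathway list counts in its totals and is not reported here on its own. On simulated arrays with 200 changed probes among 30520, limma recovered 178 and called 3 unchanged ones. Its recovery of differences as small as those of the Eph receptors and ephrins was not tested. The alternatives were other background correction, scaling, detection filters, a floor of 5, a replicate block, the mean of a gene's probes, another prior, an equal variance test, a 1.5-fold threshold and each array left out. The RNA collections pair the arrays by the design text, although deviations of same-numbered arrays had a correlation of -0.199. Precision is limited by having 2 arrays a clone, and p-values measure only the spread between arrays of the same clones.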

Additional observations from a re-analysis of the deposited data

How the results depend on the processing

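Of 160 values of the 10 genes under the 16 alternatives, 3 changed sign, in EPHA4 and EFNB2, and the other 8 genes kept theirs. With 1 array left out in turn, EPHA4 ranged from -0.24 to 0.087 (0.013 without the first vec array and 0.087 without the first shpkp3-2 array), and EFNB2 from -0.020 without the second vec array to 0.47 without the first. EPHA2 was called in 2 alternatives, as given above, which made 1 gene called with normexp background correction and 1 with the replicate block, where 173 and 841 of all 30520 probes were called, against 121 as reported. The brightest probes of the other family members and the pathway genes were called in none. The 1.5-fold threshold was met by 2 genes.

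Over all probes limma called 76 higher and 45 lower. With the RNA collection as a replicate block it called 503 and 338, and the block changed no other call of an Eph receptor or ephrin. A crossed pairing, added after seeing the data, called 104 in all. Without a detection filter it called 10 and 8, with probes well above background on all arrays 25 and 21, with the weaker flag 1 and 1, and with quantile normalization 42 and 32. The equal variance test called 0 and 0. Without the first vec, second vec, first shpkp3-2 or second shpkp3-2 array, 171, 108, 243 or 224 were higher and 142, 154, 55 or 80 lower. With an array left out the lone array of a clone is assumed to vary like the other clone. The cause of these moves was not tested. Normexp background correction put the median of all probes at 0.080 and median centring at -0.019, from 0.051, so no scaling moved it by more than 0.1.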
